A study of Mus musculus with 4 samples.

Results

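The genes described are the heavy chain variable genes (Ighv), read in plasma cells that were captured within a sort of small-intestinal group 3 innate lymphoid cells (ILC3s). Every gene column starting with Ighv was taken, which gave 141 genes of 23387 in replicate 1 and 102 of 22671 in replicate 2, and 149 genes in either. Plasma cells were the cells with at least 3 molecules (unique molecular identifiers, UMIs) of Mzb1, Derl3 and Tnfrsf17 together. In replicate 1 they numbered 424 of 2077 tagged cells (20.4%, exact 95% interval 18.7 to 22.2). In replicate 2 they numbered 27 of 4532 (0.596%, 0.393 to 0.866). Intervals of shares are Clopper-Pearson, a count of 0 is given the limit set by 3 counts of the total, and both cover counting error only.

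All cells came from lamina propria of the small intestine of Cxxc1flox/flox mice aged 6 to 8 weeks that carry a cre transgene, whose recombinase deletes Cxxc1. There is 1 group with 2 replicates of 2 libraries, and a replicate's libraries were deposited merged. Replicate 1 carried sample tag 4 of a capture of 8064 cells, and replicate 2 carried tag 2 of a capture of 15793 cells. No animals without the deletion were analysed here, nothing in the labels ties the replicates to different animals, and the number of pooled mice is not given in the sources used here. Whether the plasma cells lacked Cxxc1 was not tested.

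A heavy chain gene is assembled during B cell development, when 1 V segment is joined to a D and a J segment, and the resulting exon is transcribed together with the constant gene of an isotype. Each plasma cell therefore normally transcribes 1 productive Ighv gene, and cells descended from the same B cell share it together with the light chain V gene. Class switching replaces the constant gene, and in the gut most plasma cells secrete IgA, which the J chain joins into dimers for export across the epithelium.

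Germline sequences of the 7 Ighv genes that were dominant in at least 10 plasma cells of replicate 1 follow, to show how closely the most used genes resemble each other. They are the V exon without its first 11 bases, which belong to the leader peptide, written 5′ to 3′ on the coding strand from the GENCODE vM21 transcripts (GRCm38, minus strand). Ighv8-5 is cut to its first 300 of 301 bases. Capitals mark the bases that differ from the most similar other Ighv segment of the annotation. A base that only the other segment has counts as a difference but cannot be capitalised, which applies to 1 difference of Ighv1-55 and 2 of Ighv3-6.
Ighv8-5: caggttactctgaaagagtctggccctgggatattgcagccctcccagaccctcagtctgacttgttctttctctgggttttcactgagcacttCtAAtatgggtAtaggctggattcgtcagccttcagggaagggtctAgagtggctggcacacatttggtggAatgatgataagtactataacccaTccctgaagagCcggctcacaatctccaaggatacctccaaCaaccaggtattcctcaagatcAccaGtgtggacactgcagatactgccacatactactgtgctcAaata
Ighv1-72: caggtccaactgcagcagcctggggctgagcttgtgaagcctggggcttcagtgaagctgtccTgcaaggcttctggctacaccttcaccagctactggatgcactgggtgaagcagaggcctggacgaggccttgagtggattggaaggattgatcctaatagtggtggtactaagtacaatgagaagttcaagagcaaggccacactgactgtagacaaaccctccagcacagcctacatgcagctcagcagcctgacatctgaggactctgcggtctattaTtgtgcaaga
Ighv1-64: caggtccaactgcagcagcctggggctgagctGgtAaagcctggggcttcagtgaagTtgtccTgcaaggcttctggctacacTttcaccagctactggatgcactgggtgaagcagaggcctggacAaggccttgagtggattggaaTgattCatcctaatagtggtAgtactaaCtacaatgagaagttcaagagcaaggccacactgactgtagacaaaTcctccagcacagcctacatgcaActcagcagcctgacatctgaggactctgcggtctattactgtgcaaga
Ighv1-55: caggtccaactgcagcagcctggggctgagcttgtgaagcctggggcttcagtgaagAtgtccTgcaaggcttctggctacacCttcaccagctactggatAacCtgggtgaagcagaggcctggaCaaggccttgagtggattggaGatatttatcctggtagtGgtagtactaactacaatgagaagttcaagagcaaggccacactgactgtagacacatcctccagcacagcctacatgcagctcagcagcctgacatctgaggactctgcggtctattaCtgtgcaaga
Ighv1-52: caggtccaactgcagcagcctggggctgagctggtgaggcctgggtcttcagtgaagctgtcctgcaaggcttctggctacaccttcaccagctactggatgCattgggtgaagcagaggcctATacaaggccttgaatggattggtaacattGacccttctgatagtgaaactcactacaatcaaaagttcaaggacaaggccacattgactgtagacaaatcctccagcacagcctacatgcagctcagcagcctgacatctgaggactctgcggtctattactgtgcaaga
Ighv1-26: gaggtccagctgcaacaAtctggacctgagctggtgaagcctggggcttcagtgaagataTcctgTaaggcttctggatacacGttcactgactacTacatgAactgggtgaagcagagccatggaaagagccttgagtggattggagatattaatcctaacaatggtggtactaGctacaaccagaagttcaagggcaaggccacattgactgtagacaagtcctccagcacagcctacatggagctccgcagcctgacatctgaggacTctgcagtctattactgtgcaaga
Ighv3-6: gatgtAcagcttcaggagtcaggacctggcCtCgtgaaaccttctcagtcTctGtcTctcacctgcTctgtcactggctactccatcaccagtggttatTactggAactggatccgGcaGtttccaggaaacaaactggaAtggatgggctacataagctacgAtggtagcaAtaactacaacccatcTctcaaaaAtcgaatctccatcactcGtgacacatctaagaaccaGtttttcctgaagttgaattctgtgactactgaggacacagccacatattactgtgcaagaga

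Ighv8-5 lies at chr12:115067561-115067860. Ighv1-72 lies at chr12:115757984-115758277. Ighv1-64 lies at chr12:115507545-115507838. Ighv1-55 lies at chr12:115208095-115208388. Ighv1-52 lies at chr12:115145487-115145780. Ighv1-26 lies at chr12:114788372-114788665. Ighv3-6 lies at chr12:114288152-114288447. All are exonic and on the minus strand. Ighv1-72 differed from Ighv1-62-3 at 2 of 294 bases (99.3% identity), Ighv1-52 from Ighv1-61 at 4 and Ighv1-26 from Ighv1-18 at 8. Ighv1-55 differed from the pseudogene Ighv1-62 at 10 bases, Ighv1-64 from Ighv1-62-3 at 12, Ighv8-5 from Ighv8-8 at 12 and Ighv3-6 from Ighv3-1 at 20. Among the printed segments, Ighv1-72 and Ighv1-64 were 95.9% identical, Ighv1-55 and Ighv1-64 95.2%, and Ighv8-5 and Ighv3-6 62.1%. Of the 68 genes dominant in any plasma cell, none had an identical partner, and 5 had one of at least 98% identity. Whether reads of such neighbours were assigned to the right gene was not tested, and somatic mutations could move a read between them. Ighv1-62-3, the neighbour of Ighv1-72, held 7 UMIs over all plasma cells and was dominant in none.

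Nearly every plasma cell with enough Ighv molecules carried a single Ighv gene. A cell was given a dominant gene where it held at least 5 Ighv UMIs and 1 gene had over 50% of them. This gave a gene to 347 of 424 cells in replicate 1 (81.8%, 77.8 to 85.4) and to 23 of 27 in replicate 2 (85.2%, 66.3 to 95.8). In these assigned cells the dominant gene held a median of 100% of the Ighv UMIs in replicate 1 (lowest 62.5%) and 99.4% in replicate 2 (lowest 79.2%). A second Ighv gene with at least 20% of the UMIs appeared in 8 of 347 cells (2.31%, 1.00 to 4.49) and in 0 of 23, which allows a share of up to 13.0%. These 8 cells paired Ighv1-53 with Ighv1-78 (35 and 20 UMIs), Ighv1-39 with Ighv9-3 (23 and 11) and Ighv2-2 with Ighv1-53 (40 and 16), while the second gene of the other 5 had only 2 or 3 UMIs.

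The 77 unassigned cells of replicate 1 stood apart in more than their Ighv counts. Of these, 74 had under 5 Ighv UMIs and 3 had no gene over 50%, and 40 had no Ighv UMI at all. Their median Igha count was 141 UMIs against 1329 in assigned cells, and their median total was 4227 UMIs against 9952. Of the 3 gate genes together they held a median of 5 UMIs against 25, and of the 8 plasma cell markers of the fixed list 38 against 559. In 17 of the 77 Igha still exceeded 500 UMIs. Markers of mature B cells lay in few of them: Ms4a1, the B cell antigen CD20, had 49 UMIs in 6 unassigned cells (116 CPM, UMIs of a gene scaled to 1000000 UMIs in all) against 6 UMIs in 5 assigned cells (1.66 CPM). Pax5, a B cell transcription factor, had 12 UMIs in 3 cells (28.4 against 0.552 CPM) and Cd22 8 UMIs in 3 cells (18.9 CPM, none in assigned cells). The 8 listed B cell markers together differed less, at 745 against 626 CPM. Their most abundant member, Cd79a, was lower in unassigned cells (343 against 472 CPM), and Cd79b was at 189 against 143 CPM. Cd8a, a T cell antigen, had 51 UMIs in 5 cells (121 against 0.828 CPM). The other T cell markers did not share this contrast. Cd3d, Trac and Trbc1 were lower in unassigned cells (0, 11.8 and 7.09 against 3.03, 12.4 and 8.28 CPM). Cd3e, Cd3g, Trbc2 and Cd4 were higher (9.46, 7.09, 40.2 and 35.5 against 9.38, 6.34, 27.3 and 16.3 CPM). The 5 myeloid markers together were at 161 against 23.4 CPM. Which cell types these cells include was not tested. The unassigned cells remain in the isotype and cycling shares over all plasma cells. Among cells just inside the gate, at 3 UMIs, 1 of 22 was assigned a gene in replicate 1 and 1 of 3 in replicate 2. Just outside it, at 2 UMIs, these were 7 of 51 and 0 of 5.

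Ighv transcripts outside the gate were counted too, and not all of them were scattered background. In replicate 1, 159 of these 351 UMIs lay in 8 cells with at least 5 Ighv UMIs. In replicate 2, 57 of 100 lay in 4 such cells, and both sets are described in the closing section. Of 1653 other cells in replicate 1, 161 had an Ighv UMI (9.74%, 8.35 to 11.3), against 384 of the 424 plasma cells (90.6%), at median depths of 3481 and 9351 UMIs. In replicate 2 the shares were 42 of 4505 (0.932%, 0.673 to 1.26) and 26 of 27 (96.3%), at 2261 and 8670 UMIs. Igha was far more widespread, with a UMI in 97.4% and 24.0% of the other cells. Within all plasma cells, 2.90% and 3.28% of the Ighv UMIs lay on a gene other than the one with the most UMIs in that cell.

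Markers of other cells were present in the plasma cells. At least 2 UMIs of the 5 stromal markers occurred in 376 of 424 plasma cells in replicate 1 and 14 of 27 in replicate 2, with Col3a1, a fibroblast collagen, at 324 CPM against 8009 in other cells in replicate 1, and at 1844 against 2718 in replicate 2. At least 2 UMIs of the 8 T cell markers occurred in 52 and 6 cells. All 7 ILC3 markers were detected in replicate 1 and 6 of 7, without Ncr1, in replicate 2. The B cell markers Cd22, Cr2, Fcer2a and Pax5 were at 0 in replicate 2. The part of this RNA in the Ighv results was not tested, beyond the counts without such cells given in the closing section.

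In all, 67 genes were dominant in replicate 1 and 20 in replicate 2. Of these, 19 were shared, which is 28.4% of the first list and 95% of the second, and 22 of the 23 assigned cells of replicate 2 used a gene also found in replicate 1. Of the 149 Ighv genes, 81 were dominant in no cell and 34 had no UMI in any plasma cell. The annotation calls 105 of the 149 functional and 44 pseudogenes. Only 2 pseudogenes were dominant, each in 1 cell, namely Ighv1-2 in replicate 1 and Ighv3-2 in replicate 2, chosen for mention after their values were seen.

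Ighv8-5 and Ighv1-72 were the most used genes of replicate 1. Ighv8-5 was dominant in 24 of 347 cells (6.92%, 4.48 to 10.1) and in 1 of 23 in replicate 2 (4.35%, 0.110 to 21.9). Ighv1-72 was dominant in 23 cells (6.63%, 4.25 to 9.78) and in 3 in replicate 2 (13.0%, 2.78 to 33.6), where it ranked first. Their order in replicate 1 rests on 1 cell. Over both replicates the share of Ighv1-72 averaged 9.84% ± 4.54 (SD, n = 2) and that of Ighv8-5 5.63% ± 1.82.

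Ighv1-64 followed with 17 cells (4.90%, 2.88 to 7.73), Ighv3-6 with 16 (4.61%, 2.66 to 7.38), Ighv1-52 with 15, Ighv1-26 with 14 and Ighv1-55 with 12. In replicate 2 these were 0, 0, 1, 1 and 2 cells, and a count of 0 of 23 allows up to 13.0%. Neighbouring genes in this order had overlapping intervals. These 7 genes together made up 121 of the 347 assigned cells (34.9%), and the 31 genes with at least 5 cells made up 265 (76.4%). Only Ighv1-72 and Ighv1-55 were dominant in more than 1 cell of replicate 2. Ighv3-6 lay outside the rule for named genes and is named because of its values, as are Ighv14-3 with 9 cells and Ighv5-16 with 8.

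**Figure D1:**
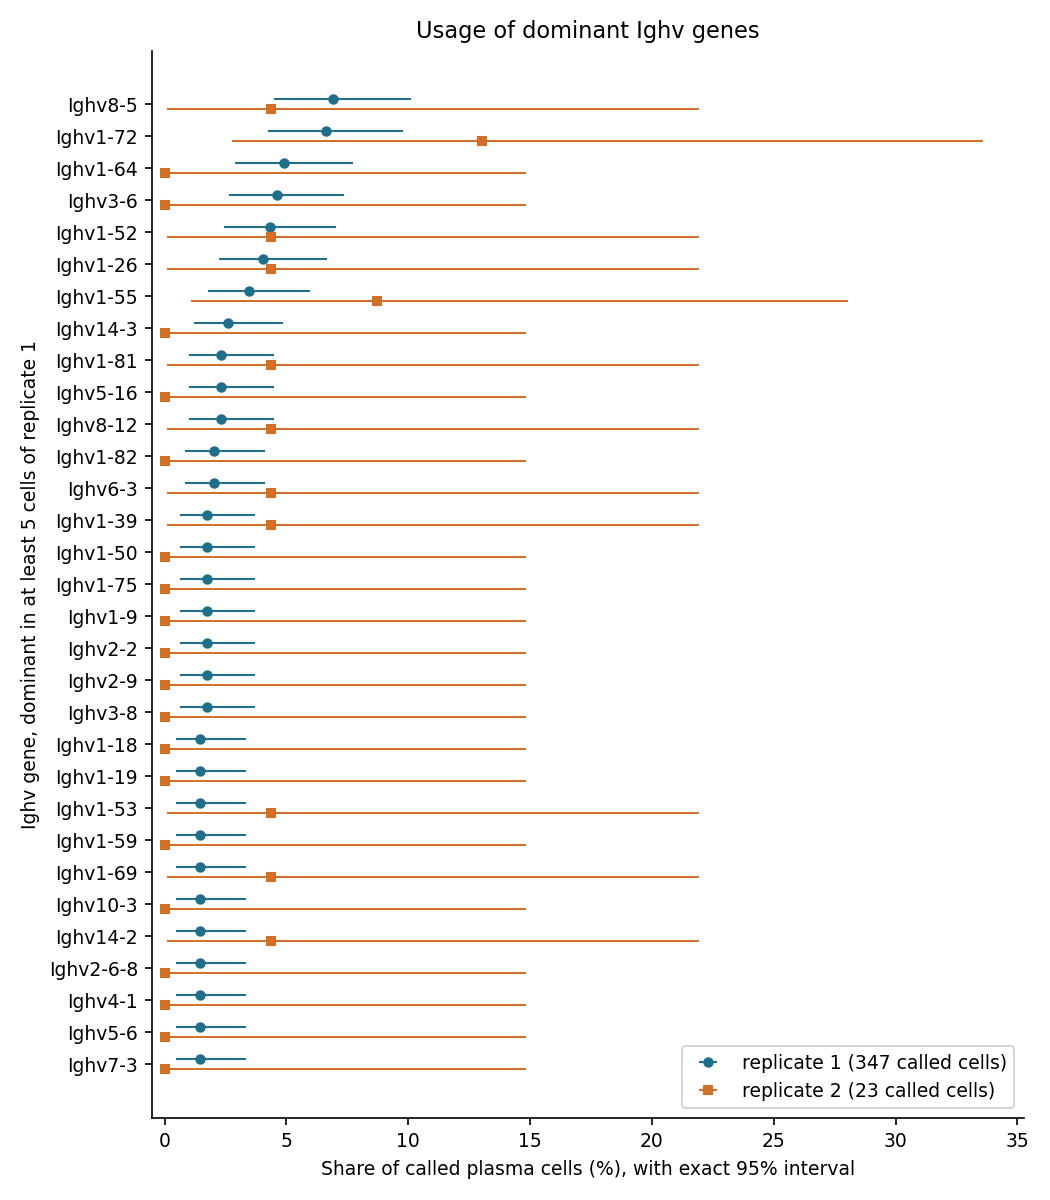
Share of assigned plasma cells (%, x axis) in which each Ighv gene (y axis) was dominant, with exact 95% intervals, for the 31 genes with at least 5 cells in replicate 1. Circles are replicate 1 (347 cells) and squares replicate 2 (23 cells); Ighv8-5 and Ighv1-72 lead replicate 1 at 24 and 23 cells, and the intervals of replicate 2 are wide.

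The remaining genes of the rule were used by few cells. Ighv8-12 and Ighv1-81 had 8 cells each in replicate 1 and 1 each in replicate 2, Ighv6-3 had 7 and 1, and Ighv1-39 had 6 and 1. Ighv1-53, Ighv14-2 and Ighv1-69 had 5 and 1 each, Ighv1-54 had 4 and 1, and Ighv2-9-1 and Ighv1-80 had 3 and 1. Ighv1-42, Ighv1-7, Ighv2-5 and Ighv1-5 had 2 and 1. Most of these entered the list through 1 cell of replicate 2, where a cell is worth 4.35% of the assigned cells.

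Diversity was high in both replicates. The effective number of genes, the exponential of the Shannon entropy of the usage, was 48.3 in replicate 1 and 18.8 in replicate 2, and it grows with the number of cells. Drawn down to 15 cells, the expected number of genes was 12.8 and 13.6. In replicate 1, 9 of the 67 genes were seen in 1 cell, against 18 of 20 in replicate 2. Among assigned cells that also had a light chain V gene (334 and 23 cells), pairs shared their Ighv gene in 2.52% of cases in replicate 1 and 1.58% in replicate 2.

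By family, the large Ighv1 group was dominant in 188 of 347 cells (54.2%, 48.8 to 59.5) and in 16 of 23 (69.6%, 47.1 to 86.8), while it makes up 47.4% of the 114 annotated functional genes. Ighv8 held 36 cells (10.4%, 7.37 to 14.1) through 3 genes and 2 cells in replicate 2, with 7.89% of functional genes, and 24 of those 36 were the Ighv8-5 cells. Ighv5 held 27 cells and none in replicate 2, Ighv3 26 and 1, Ighv2 24 and 2, and Ighv14 17 and 1. Ighv6, Ighv9, Ighv4, Ighv10, Ighv7 and Ighv13 held between 7 and 1 cells in replicate 1. No cell used Ighv11, Ighv12, Ighv15 or Ighv16, a count of 0 of 347 that allows up to 0.865%. For Ighv11 neither table has a column.

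The Ighv genes span 2437 kb of chromosome 12 (113572927 to 116010093). With the 114 functional genes split in order into 3 parts of 38, the part farthest from the D segments, from Ighv8-4 to Ighv1-85, held 172 cells of replicate 1 (49.6%, 44.2 to 55.0) and 13 cells of replicate 2 (56.5%, 34.5 to 76.8). The part nearest to the D segments, from Ighv5-2 to Ighv3-5, held 87 (25.1%, 20.6 to 29.98) and 3 (13.0%, 2.78 to 33.6). The middle part, from Ighv3-6 to Ighv1-47, held 87 and 6. Shares of the distal and proximal parts did not overlap in their intervals in replicate 1, and no test was made because cells of a replicate share their source.

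**Figure D2:**
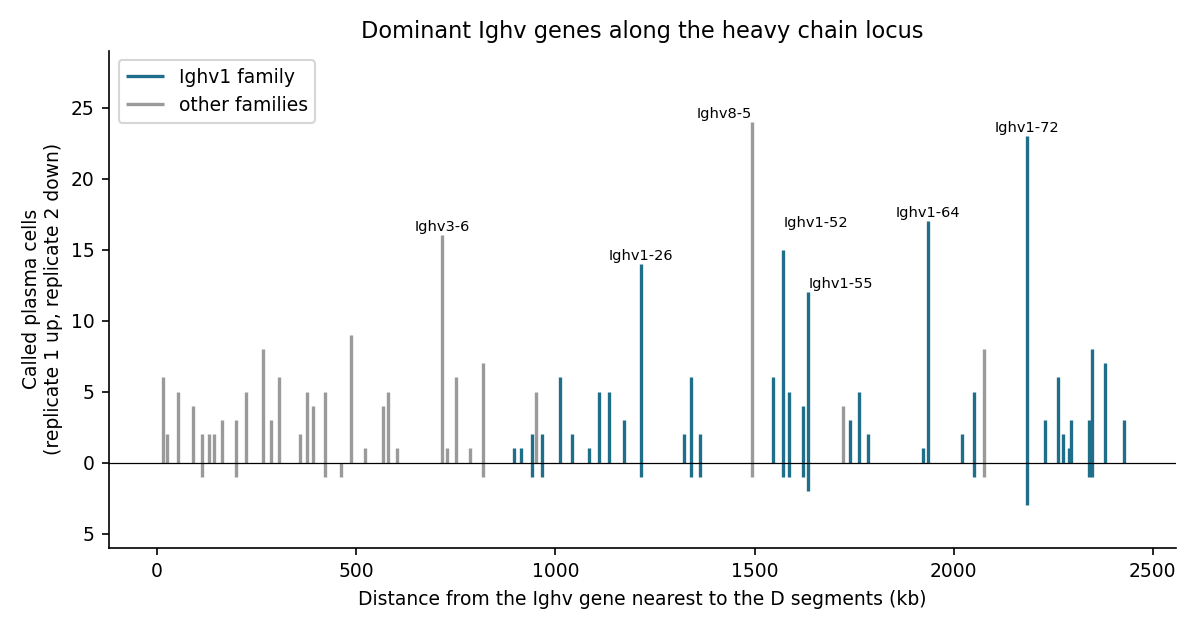
Number of assigned plasma cells per dominant Ighv gene (replicate 1 upward, replicate 2 downward) against the distance in kb from the Ighv gene nearest to the D segments. Blue lines are Ighv1 family genes and grey lines other families; 172 of the replicate 1 cells use the distal 38 functional genes, and the 7 genes with at least 10 cells are named.

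Ighv molecules were few beside those of the constant region. Plasma cells held a median of 22 Ighv UMIs in replicate 1 (0 to 310) and 33 in replicate 2 (0 to 168), against 1233 and 1456 UMIs of the heavy chain constant genes. Per cell, Ighv made up a median of 1.81% of Ighv plus constant UMIs in replicate 1 and 2.18% in replicate 2 (mean 1.99% ± 0.261, SD, n = 2).

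That share differed between genes. In the 16 Ighv3-6 cells it was a median of 9.83% (2.75 to 18.8), with 149.5 Ighv UMIs per cell (8 to 310) and a median of 1303.5 constant UMIs. Ighv1-72 cells had 0.787% (0.351 to 1.59), with 15 Ighv UMIs (5 to 39) and 1896 constant UMIs. The lowest Ighv3-6 cell thus lay above the highest Ighv1-72 cell. Ighv8-5 stood between them at 2.64% (0.772 to 6.28), Ighv1-26 at 1.43%, Ighv1-64 at 1.31%, Ighv1-52 at 1.11% and Ighv1-55 at 0.933%. Ighv3-6 took 17.8% of all Ighv UMIs of plasma cells in replicate 1 with 4.61% of the cells, so summed UMIs and counted cells rank the genes differently. Over the 31 genes with at least 5 cells the medians ran from 0.663% for Ighv1-69 to 9.83%. As a description, across these genes, which share 1 replicate and similar lengths, the share was lower where the closest other segment was more similar (Spearman's rho = -0.51). The part of that similarity in the share was not tested. In replicate 2, single cells of Ighv1-39 (9.03%) and Ighv1-5 (7.06%) and 3 cells of Ighv1-72 (0.596 to 2.27%) could be compared.

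**Figure D3:**
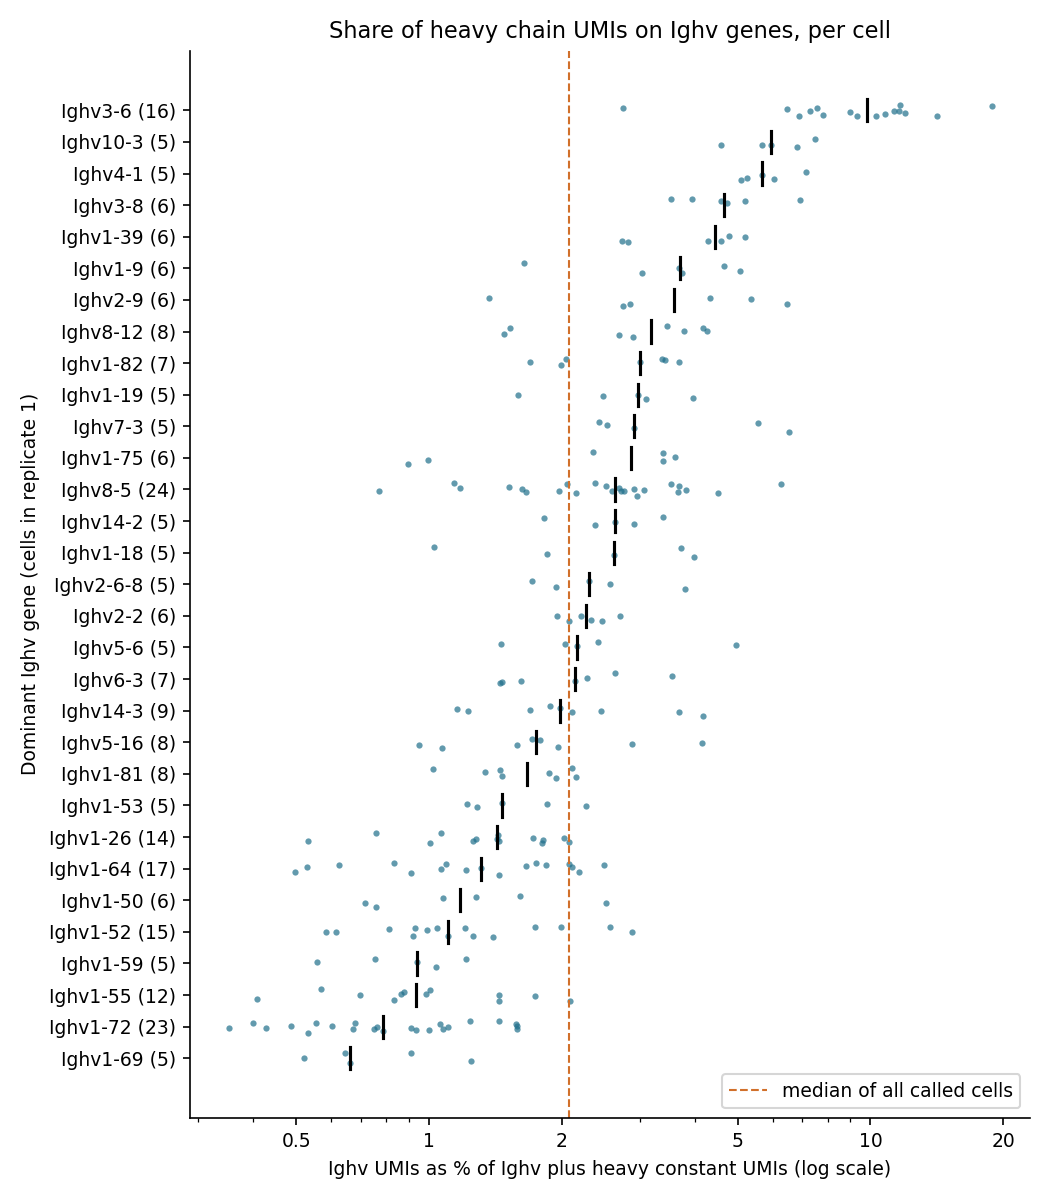
Ighv UMIs as a percentage of Ighv plus heavy chain constant UMIs (log x axis) in each assigned plasma cell of replicate 1, grouped by dominant gene (y axis, cells in brackets). Points are cells with random vertical spread, black bars are medians and the dashed line is the median of all assigned cells; Ighv3-6 lies highest at 9.83% and Ighv1-69 lowest at 0.663%.

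Isotype was almost uniform. The constant gene with over 50% of a cell's heavy constant UMIs, from at least 5, was Igha in 416 of 424 cells in replicate 1 (98.1%, 96.3 to 99.2) and in 27 of 27 in replicate 2 (100%, 87.2 to 100). Some of these calls rest on few UMIs, since plasma cells of replicate 1 held as few as 11 constant UMIs. Igha was also at 4070 CPM in the other cells of replicate 1, against 125546 CPM in plasma cells. The part of Igha RNA from outside the cell in such calls was not tested. Among Igha cells 342 had a dominant Ighv gene and used all 67 genes of replicate 1. The other 8 cells were 4 Ighm, 2 Ighg1 and 2 Ighg2b cells, all in replicate 1, and none of them was cycling by the rule below. Too few cells were available for an estimate of usage by isotype.

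Of those 8, 5 had a dominant gene, and each used a different one. The Ighg2b cells carried Ighv1-81 with Igkv9-124 (3109 Ighg2b and 14 Igha UMIs) and Ighv5-16 with Igkv16-104 (1884 and 59). An Ighg1 cell carried Ighv1-26 with Igkv12-46 (1672 Ighg1 and 15 Igha UMIs). The assigned Ighm cells carried Ighv1-75 with Igkv4-53 (989 Ighm and 7 Igha UMIs) and Ighv8-5 with Igkv1-117 (1380 and 34). The last of these is the combination that was most common among Igha cells. All 5 genes were also dominant in Igha cells. Igha UMIs in these cells lay between 7 and 59, far below the median of 1329 in assigned cells. The 2 remaining Ighm cells had only 23 and 15 constant UMIs and no Ighv UMI, so their isotype rests on little.

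Cycling plasma cells, known as plasmablasts where they are young and dividing, were those with at least 3 UMIs over 12 mitotic genes such as Mki67 and Top2a. They were 127 of 424 in replicate 1 (29.95%, 25.6 to 34.6) and 2 of 27 in replicate 2 (7.41%, 0.910 to 24.3). With each cell thinned to 2000 UMIs, which left out 12 cells of replicate 1 and none of replicate 2, the shares were 22.6% (18.6 to 26.9) and 3.70% (0.0937 to 19.0). In replicate 1, 15 plasma cells had exactly 3 such UMIs, 29 had 2 and 96 had at least 10. Cycling cells were deeper, with a median of 11987 UMIs against 8847, and held fewer constant UMIs, 924 against 1380. With 2 cycling cells in replicate 2, all further values by state are of replicate 1 alone and carry no test.

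Both states used a broad set of Ighv genes. A dominant gene was assigned in 98 of 127 cycling cells (77.2%, 68.9 to 84.1) and in 249 of 297 non-cycling cells (83.8%, 79.1 to 87.8). Cycling cells used 48 genes and non-cycling cells 61, of which 42 were shared, or 87.5% and 68.9% of each list. Drawn down to 50 cells, 33.0 genes were expected in cycling and 30.4 in non-cycling cells. The same Ighv gene was shared by 2.12% of pairs of cycling cells, 2.81% of pairs of non-cycling cells and 2.16% of pairs across states. Ighv1 family genes made up 48.0% of cycling (37.8 to 58.3) and 56.6% of non-cycling cells (50.2 to 62.9). Ighv made up a median of 1.72% and 1.84% of Ighv plus constant UMIs over all plasma cells of each state, but 2.16% and 2.08% over assigned cells, so this difference has no stable direction. The direction of the difference in genes per 50 cells also turned under another cycling rule, given in the closing section. The intervals of the assigned share and of the Ighv1 share overlapped between states.

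**Figure D4:**
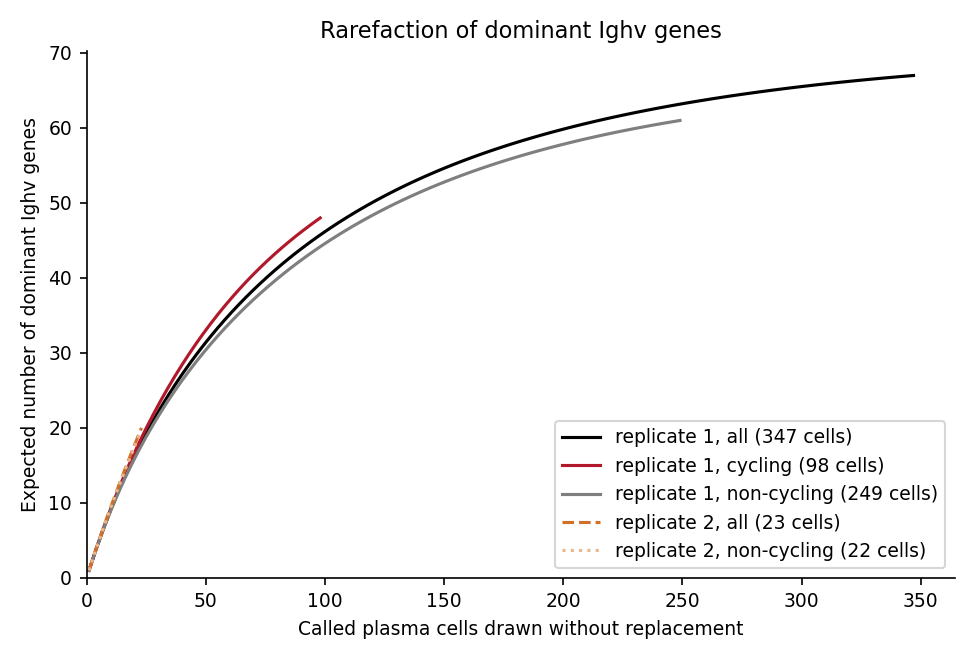
Expected number of dominant Ighv genes (y axis) in draws of assigned plasma cells without replacement (x axis), by replicate and state. At 50 cells the cycling curve of replicate 1 stands at 33.0 genes and the non-cycling curve at 30.4; replicate 2 ends at 20 genes in 23 cells.

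Among the 7 genes with at least 10 cells, the share of cycling cells ran from 4.35% to 37.5%, on few cells each. The intervals of the lowest and highest gene, Ighv1-72 and Ighv8-5, overlapped. Of the Ighv8-5 cells 9 of 24 cycled (37.5%, 18.8 to 59.4), and of the Ighv1-72 cells 1 of 23 (4.35%, 0.110 to 21.9), against 98 of 347 (28.2%, 23.6 to 33.3) over all assigned cells. Ighv1-52 had 1 of 15 (6.67%, 0.169 to 31.9), Ighv1-26 5 of 14 (35.7%, 12.8 to 64.9), Ighv1-64 4 of 17, Ighv3-6 3 of 16 and Ighv1-55 3 of 12. The Ighv1-72 cells had a median of 15 Ighv UMIs, and the cycling one had exactly 5, the minimum for an assigned gene. With a minimum of 2 UMIs, 1 of 27 Ighv1-72 cells cycled (3.70%, 0.0937 to 19.0). Igkv10-96 was the main light gene of Ighv1-72 but was mostly found with other heavy genes. Of the 5 unassigned cells with Igkv10-96, 3 cycled, and the 5 held a median of 0 Ighv UMIs. Of the 4 unassigned cells with Igkv1-117, the main light gene of Ighv8-5, 2 cycled. The part of the minimum in the low share of Ighv1-72 was not tested. Cells of 1 gene can descend from the same B cell and are not independent, so these intervals are too narrow for the animals. In replicate 2 the single Ighv8-5 cell cycled and the 3 Ighv1-72 cells did not.

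Light chains were read by the same rule over Igkv and Iglv genes, which gave both a heavy and a light V gene to 334 cells in replicate 1 and 23 in replicate 2. The 334 cells held 233 combinations of 59 light chain genes with the heavy chain genes. Of these, 192 combinations were seen once, and 41 were seen in at least 2 cells and covered 142 cells. All 23 cells of replicate 2 had different combinations. Pairs of cells with the same heavy gene also shared the light gene in 29.2% of 1403 pairs, against 4.01% of pairs with different heavy genes. Without Ighv8-5 and Ighv1-72, these shares were 12.1% and 3.40%.

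Ighv8-5 was tied to Igkv1-117, which was the light gene of 20 of its 24 cells in replicate 1 and of its 1 cell in replicate 2. Of the 20, 19 were Igha cells, and 9 cycled (45.0%, 23.1 to 68.5). Ighv1-72 was split between Igkv10-96 in 14 cells, of which 1 cycled (7.14%, 0.181 to 33.9), and Igkv12-46 in 7 cells, of which none did (0 of 7, which allows up to 42.9%). Igkv10-96 was also the light gene of 8 of 17 Ighv1-64 cells and of 4 of 12 Ighv1-55 cells. The printed segments of Ighv1-72, Ighv1-64 and Ighv1-55 are 94.6 to 95.9% identical, and Igkv10-96 was the most frequent light gene of all 3. It was found with 47 of the 334 heavy chains of replicate 1. In these cells the median light V count was 233 UMIs with Ighv1-72, 147 with Ighv1-64 and 332 with Ighv1-55. Their heavy V counts had medians of 15, 19 and 34 Ighv UMIs and a lowest cell of 5, 5 and 17. The median of all assigned cells was 29, so the first 2 lay below it and that of Ighv1-55 above it.

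In total, 19 combinations were seen in at least 3 cells, covering 98 cells, and 13 of them held both cycling and non-cycling cells. Ighv1-52 with Igkv3-5, Ighv2-6-8 with Igkv12-46 and Ighv5-6 with Igkv4-53 had 4 cells each and no cycling cell. Ighv3-6 was spread over 9 light genes in 14 cells, with Igkv12-41 and Igkv5-39 in 3 each, so its high Ighv share was not that of 1 combination. Cells whose combination recurred within their own state were 24.2% of cycling cells (16.01 to 34.1) and 40.2% of non-cycling cells (33.9 to 46.7), and such a share grows with the number of cells, which was 95 and 239.

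**Figure D5:**
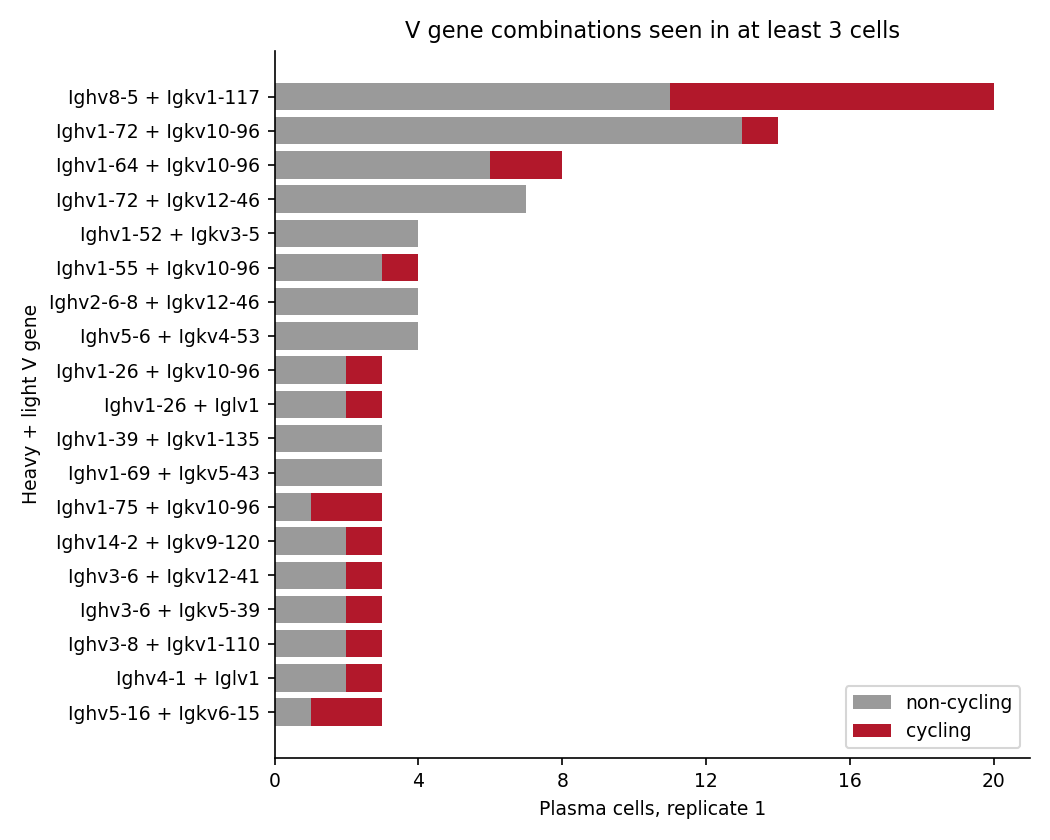
Number of plasma cells of replicate 1 (x axis) for each of the 19 combinations of heavy and light V gene (y axis) seen in at least 3 cells, with cycling cells in red and non-cycling cells in grey. Ighv8-5 with Igkv1-117 has 20 cells, 9 of them cycling, and Ighv1-72 with Igkv10-96 has 14, 1 of them cycling.

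Both replicates shared 4 combinations. Ighv8-5 with Igkv1-117 had 20 cells in replicate 1 and 1 in replicate 2, and Ighv1-72 with Igkv10-96 had 14 and 1. Ighv1-5 with Iglv1 had 2 and 1, and Ighv2-5 with Igkv4-91 had 1 and 1. The replicate 2 cells held 14, 14, 150 and 45 Ighv UMIs, and 22, 206, 439 and 72 light V UMIs, in the same order. No cell index was shared between the plasma cells of the captures, against 7 among all tagged cells. With 424 and 27 plasma cells among 2077 and 4532 tagged cells, a shared index was unlikely in any case. Its absence therefore says nothing about the source of the shared combinations. The junctions of the segments are not in these counts, so a shared combination does not show a shared clone.

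Genes around the variable region were listed in 4 groups and given as levels, without a test. The group of recombination, switching and hypermutation genes had 19 of 21 members detected. Rag1 and Rag2, the recombinase of V segment joining, had no UMI in the 4047860 UMIs of plasma cells in replicate 1, which allows up to 0.741 CPM (3 counts of the total). Polh, a DNA polymerase of hypermutation, stood at 40.5 CPM (exact Poisson interval 31.0 to 52.0) in cycling and 3.54 CPM (1.62 to 6.72) in non-cycling cells. All 12 members with at least 20 UMIs were higher in cycling cells, with a median log2 ratio of 1.23. Over the 8582 genes with as many UMIs, 79.2% were higher, with a median of 0.58.

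All 16 plasma cell regulators and secretion genes were detected, and 8 of 16 were higher in cycling cells (median log2 ratio 0.03). Jchain, the joining chain of IgA, was at 30525 CPM in cycling and 60368 CPM in non-cycling cells, and Hsp90b1, a chaperone of the endoplasmic reticulum, at 9107 and 5193 CPM. Of the IgA export and homing genes 7 of 8 were higher in cycling cells (median 0.26), with Ccr10, a homing receptor of IgA cells, at 326 CPM (298 to 356) and 222 CPM (204 to 242). Over all 8582 genes 79.2% were higher, with a median of 0.58. Over assigned cells the log2 ratio of Ccr10 was 0.54, below the all-gene median of 0.59. Igha itself was at 77809 CPM in cycling and 153868 CPM in non-cycling cells. Its part in the CPM of other genes was not tested. B cell receptor and germinal centre genes were higher in 6 of 8 (median 0.61), a group whose Ms4a1 UMIs lay mostly in the 6 unassigned cells named above. Over assigned cells alone, a restriction added once the values were known, 10 of 11, 9 of 16, 7 of 8 and 5 of 6 members of the 4 groups were higher in cycling cells, in the order given here, against 79.7% of 8212 genes. Polh was then at 38.1 CPM (28.2 to 50.4) and 3.42 CPM (1.48 to 6.74). In plasma cells of replicate 2, Ccr10 was at 222 CPM against 0.168 CPM in the other cells.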

How the data were processed

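Small-intestinal cells sorted as ILC3s were profiled on the BD Rhapsody system. The deposited tables hold counts of molecules (UMIs) per cell and gene, not normalized. Per the file headers, reads were counted by the BD WTA Multiplex Rhapsody Analysis Pipeline (version 1.8) against GRCm38 with GENCODE vM19. Tag calls of cells are deposited names, other than counts, made by that pipeline. HISAT2 2.0.5 and Bowtie2 stand in the submitters' processing notes with no stated use. Tables were used as deposited for the cells of tag 4 (2077 cells, 11939862 UMIs, median 4027) and tag 2 (4532 cells, 12141164 UMIs, median 2269). Cells of the other tags, 349 and 572 multiplets, and 508 and 1128 undetermined cells were left out. No doublet caller was run.

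The members, lists and rules were chosen with earlier results of these data known. Shares are over cells of a replicate with exact binomial intervals. Means over replicates weight them equally. A fit over all genes (cycling against non-cycling, IgA against other isotypes) was to be made only where every sum held at least 10 cells. The smallest sums held 2 and 0 cells, so none was made. Free RNA and read assignment between similar genes can add UMIs of a wrong Ighv gene, which the minimum of 5 UMIs and the 50% rule limit. Named genes are the 20 with the highest mean share over both replicates, plus any with at least 5% in a replicate. Other names were chosen after their values were seen. V exons and coordinates came from GENCODE vM21 on the same build; all 149 Ighv symbols matched. In 84 of the 144 genes with a RefSeq interval of similar length, start and end were identical to the segment used. Identity is that of a global alignment. Alternatives changed the gate, the Ighv minimum and share, depth, the isotype and cycling rules, and left out each replicate. Computing used pandas 2.3.3, scipy 1.17.1 and numpy 2.4.6 under Python 3.11.15, with matplotlib 3.10.9 for plots.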

Additional observations from a re-analysis of the deposited data

Results flagged for a closer look

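Outside the plasma cell gate, 8 of 1653 cells in replicate 1 (0.484%, 0.209 to 0.951) and 4 of 4505 in replicate 2 (0.0888%, 0.0242 to 0.227) held at least 5 Ighv UMIs. These cells were not part of the usage counts. All 12 had Igha as isotype, and 10 also had a light V gene. In replicate 1, 7 of the 8 had 2 UMIs of the gate genes, and the highest, with Ighv1-76 and Igkv1-117, held 45 Ighv and 1505 Igha UMIs. In replicate 2, the highest, with Ighv1-18 and Igkv12-44, held 26 Ighv and 802 Igha UMIs and no UMI of the gate genes. Ighv1-76 was the gene of 2 of the 8 cells.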

How the results depend on the processing

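Of 107 recomputed values of the 9 summary measures (means of both replicates), 94 moved by less than the spread between replicates. The share of plasma cells with a dominant gene (83.5%) was 73.2% and 90.5% with a gate of 2 and 6 UMIs, 87.7% and 78.8% with a minimum of 2 and 10 Ighv UMIs, and 80.1% where the gene needed over 80%. It was 99.8% with Ighv UMIs thinned to 10, which by construction leaves out thinly read cells. Without cells holding at least 2 UMIs of T cell, stromal, myeloid or epithelial markers, 48 and 9 plasma cells were left; the share was 71.2%, Ighv1 usage 47.2% against 61.9% and the Igha share 96.9% against 99.1%. A second gene (1.15%) was found in 3.65% with dominance over 30%, 3.79% after thinning and 7.37% with a second gene at 10%. With at least 100 Igha UMIs, an alternative chosen after seeing the data, a dominant gene was found in 89.8%; leaving out cells with T cell UMIs, also chosen then, moved no measure. Leaving out each replicate gave 81.8 to 85.2% with a dominant gene, 6.92 to 13.0% for the most used gene, 18.8 to 48.3 effective genes, 12.8 to 13.6 genes in 15 cells, 54.2 to 69.6% Ighv1, 0 to 2.31% with a second gene, 98.1 to 100% Igha, 7.41 to 29.95% cycling and 1.81 to 2.18% Ighv. Cycling minus non-cycling cells, replicate 1: the difference in median Ighv share (-0.115 percentage points) turned to 0.0772 with a gate of 2 UMIs, 0.101 without cells of other markers and 0.0581 with cycling by 1 UMI of Mki67 or Top2a, which also turned the difference in genes per 50 cells from 2.63 to -0.248; the cause was not tested. For the 20 named genes, 191 of 220 values moved by less than that spread. The alternatives of the planned fits over all genes were not run, since the fits were not made. Those fits would have paired the sums of both classes within each replicate, and the smallest sums held too few cells. No paired analysis was therefore made, and no result comes from a test. Usage in replicate 2 rests on only 27 plasma cells, whose median depth was 8670 UMIs against 9351 in replicate 1.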
